A study of Mus musculus with 6 samples.

Results

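The 6 microRNAs (miRNAs) miR-150-5p, miR-181a-5p, miR-181a-1-3p, miR-181b-5p, miR-342-3p and miR-155-5p, chosen by name as miRNAs of lymphocyte origin or function, were followed in extracellular vesicles of mouse bone. They are 6 of 1927 mature miRNA rows, of which 327 were above 0 in any library and 145 were abundant enough to be tested. The choice was made with earlier results of these data known. Vesicles, the membrane-bound particles that cells release, came from the tibias and femurs of untreated male Swiss-CD1 mice aged 8 weeks, whose bones were cleared of marrow by a spin at 14000 g and then crushed. Large vesicles (lEVs, 3 libraries) were the pellet at 10000 g, and small vesicles (sEVs, 3 libraries) were taken from the surface of a 30% sucrose cushion after a spin at 100000 g. The question is which of these miRNAs differ in abundance between the fractions. Vesicle size, spin and cushion differ together between them and cannot be told apart. Whether replicates were separate animals or preparations is not stated in the labels, so the p-values reflect only how far these libraries vary, which may be technical. The vesicles were not sorted by cell of origin, and only miRNAs were counted, so the lymphoid label rests on what is known of these miRNAs and was not checked here.

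A miRNA is cut from a hairpin RNA and guides silencing of messenger RNAs that pair with its seed, bases 2 to 8. In blood and marrow, miR-150 accumulates in mature B, T and natural killer cells, where it represses the transcription factor Myb. The miR-181 family is abundant in developing T cells of the thymus and tunes signalling from the T cell receptor, and miR-155 is induced when lymphocytes and macrophages are activated. None of these miRNAs is confined to lymphocytes.

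The mature sequences show which of the 6 could act on the same messenger RNAs and which could be mistaken for each other in counting. They are RefSeq's, on GRCm38.p6, written from the first to the last base with the seed in capitals. They were found for 5 of the 6, all but miR-150-5p, whose seed was therefore not compared. The first 4 below are the guide strands of the miR-181 family, which share 1 seed, and the next are the opposite (3p) arms of miR-181a.
miR-181a-5p: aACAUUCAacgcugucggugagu
miR-181b-5p: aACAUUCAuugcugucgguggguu
miR-181c-5p: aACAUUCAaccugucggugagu
miR-181d-5p: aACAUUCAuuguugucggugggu
miR-181a-1-3p: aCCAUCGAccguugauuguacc
miR-181a-2-3p: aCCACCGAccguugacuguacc
miR-342-3p: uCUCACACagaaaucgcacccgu
miR-155-5p: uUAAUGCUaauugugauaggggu
Counted from the first base, miR-181b-5p differs from miR-181a-5p by A9U, C10U and A21G, all outside the seed, and miR-181d-5p differs from miR-181b-5p by C12U and its shorter end. The 3p arms of the 2 miR-181a hairpins differ by U5C, which lies in the seed, and U16C. How reads that match several of these sequences were assigned is not given in the sources used here, so the split between family members is uncertain. The seed of miR-181a-1-3p was shared by miR-181c-3p, which differs from it by U16G and U19G. The seeds of miR-342-3p and miR-155-5p were shared by no other mature miRNA in the RefSeq table.

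Positions of the hairpins are from GENCODE M21 on GRCm38. Mir150 lies between annotated genes at chr7:45121757-45121821, plus strand. The first miR-181 pair lies on chromosome 1, with Mir181a-1 at chr1:137966455-137966541 and Mir181b-1 at chr1:137966639-137966718, 97 bases apart in an exon of the noncoding A430106G13Rik. Both also lie in an intron of Gm4258 on the same strand and antisense to an intron of Gm26936. The second pair lies on chromosome 2, with Mir181a-2 at chr2:38852735-38852810 and Mir181b-2 at chr2:38853830-38853918, antisense to an intron of Nr6a1, and Mir181b-2 is also antisense to an exon of Gm44144. Because miR-181a-5p and miR-181b-5p can each come from both pairs, their counts do not show which was transcribed. Mir342 lies in an intron of Evl, a gene for a regulator of the actin cytoskeleton, at chr12:108658620-108658718. Mir155 lies in an exon of its noncoding host Mir155hg at chr16:84714140-84714204.

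Libraries held 47441, 92502 and 86637 counts for lEVs replicates 1, 2 and 3, and 75486, 99314 and 114331 counts for sEVs replicates 1, 2 and 3. lEVs replicate 1 was the shallowest library and stood apart: a chi-square of its counts against the other lEVs libraries, over its degrees of freedom, was 23.7 and 18.0, against 2.35 between those libraries and 2.99 to 6.98 between sEVs libraries. Levels are CPM (counts brought to the same library size by edgeR's TMM factors). The defining markers of other cells were all above 0. In CPM, the myeloid miR-223-3p stood at 30676 ± 423 in lEVs and 31631 ± 1110 in sEVs (SD, n = 3 each), the mesenchymal row miR-199a-3p/199b-3p at 90265 ± 15722 and 97229 ± 5976, and the endothelial miR-126a-3p at 63178 ± 6408 and 77731 ± 3438. The red cell miRNA miR-451a was counted 6, 37 and 19 times in lEVs and 20, 41 and 28 times in sEVs.

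All 6 lymphoid miRNAs were above 0 in every library, and together they took between 0.535% and 0.736% of the counts of a lEVs library and between 0.728% and 0.810% of those of a sEVs library. Of the 6, miR-150-5p rose in sEVs, and the other 5 did not pass the test (an adjusted p under 0.05, from edgeR's quasi-likelihood test, adjusted by Benjamini-Hochberg over 145 miRNAs). Over all 145 miRNAs, 17.2% passed, 8.28% higher in sEVs and 8.97% higher in lEVs, so 1 of 6 is near the background and is not a result about lymphoid miRNAs as a group. The median log2 fold change of the 6, sEVs over lEVs, was 0.31, against -0.04 over all tested miRNAs. Without lEVs replicate 1, 2 of the 6 rose, miR-150-5p and miR-342-3p, where 34.4% of the 151 miRNAs tested passed, 19.2% higher in sEVs and 15.2% higher in lEVs.

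**Figure D1:**
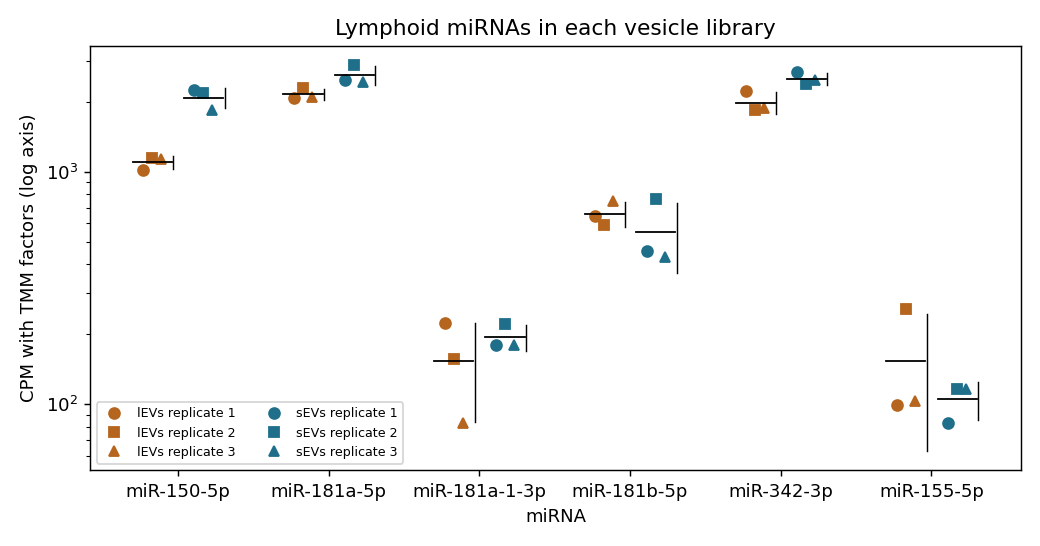
Level of each lymphoid miRNA in each library, in CPM with TMM factors on a log axis; lines are the mean of 3 libraries and bars its SD. The 3 sEVs values of miR-150-5p, from 1840.4 to 2236, lie above its 3 lEVs values, from 1013 to 1138, and the values of miR-181a-1-3p, miR-181b-5p and miR-155-5p overlap.

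miR-150-5p, abundant in mature lymphocytes, was counted 41, 124 and 110 times in lEVs replicates 1, 2 and 3, and 162, 205 and 205 times in the sEVs libraries in the same order. Its levels were 1013, 1138 and 1136 CPM in lEVs and 2236, 2167 and 1840.4 CPM in sEVs. Every sEVs library lay above every lEVs library, and the spread within a fraction was small, with a highest level 1.12 times the lowest in lEVs and 1.21 times in sEVs. The mean level was 1096 ± 71.7 CPM for lEVs and 2081 ± 211 CPM for sEVs (SD, n = 3 each), a log2 fold change of 0.91 (SE 0.14, adjusted p = 0.00268 in edgeR), or 1.88-fold, with a 95% interval of 0.59 to 1.23 on the log2 scale. As shares of library totals, which use no TMM factor, it took 0.0864%, 0.134% and 0.127% of lEVs counts and 0.215%, 0.206% and 0.179% of sEVs counts, again without overlap. Greater numbers of vesicles from a cell type and more miRNA in each vesicle cannot be told apart in these libraries. No counts were listed for the opposite arm, miR-150-3p, in any library.

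miR-342-3p, which is expressed with its host gene Evl in lymphocytes among other cells, was counted 90, 200 and 182 times in lEVs and 194, 224 and 275 times in sEVs. Its levels were 2224, 1836 and 1879.8 CPM in lEVs and 2677, 2368 and 2469 CPM in sEVs. The groups did not overlap, though lEVs replicate 1 came near the lowest sEVs library. The log2 fold change of 0.35 (SE 0.13) did not pass (adjusted p = 0.101 in edgeR, unadjusted p = 0.0312), and its 95% interval, before any adjustment, ran from 1.03-fold to 1.58-fold. Without lEVs replicate 1, which exceeded the average of lEVs replicates 2 and 3 by 0.26 on the log2 scale, it passed with a log2 fold change of 0.42 (adjusted p = 0.0282 in edgeR). Its opposite arm, miR-342-5p, had 2 counts in sEVs replicate 2 and was listed at 0 elsewhere.

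miR-181a-5p, the main guide strand of its family, was counted 84, 248 and 203 times in lEVs and 180, 271 and 271 times in sEVs. Its levels were 2076, 2277 and 2097 CPM in lEVs and 2484, 2865 and 2433 CPM in sEVs, so the sEVs values lay above the lEVs values by a narrow gap. That gap depended on the scaling: as shares of library totals the groups overlapped, with 0.177% to 0.268% in lEVs and 0.237% to 0.273% in sEVs. The log2 fold change was 0.27 (SE 0.13, adjusted p = 0.158 in edgeR), with a 95% interval from 0.980-fold to 1.48-fold. Without sEVs replicate 2 the log2 fold change was 0.15 (adjusted p = 0.511 in edgeR). At this depth a rise above 1.48-fold lies outside the interval, and a smaller one does not.

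Of the 6, the 3 miRNAs miR-150-5p, miR-342-3p and miR-181a-5p had all sEVs levels above all lEVs levels, as had 22.1% of the 145 tested miRNAs, while another 22.1% had the reverse. As shares of library totals, 2 of the 6, miR-150-5p and miR-342-3p, had all sEVs values above all lEVs values, as had 17.9% of the 145, while 27.6% had the reverse. Neither 3 of 6 nor 2 of 6 is read as a result about the members as a group.

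miR-181b-5p, which restrains the antibody-diversifying enzyme AID in activated B cells, was counted 26, 64 and 72 times in lEVs and 33, 72 and 48 times in sEVs. Its levels were 642, 588 and 744 CPM in lEVs and 455, 761 and 431 CPM in sEVs. sEVs replicate 2 held the highest level of the 6 libraries and the other sEVs libraries the lowest, so the groups overlapped. The log2 fold change was -0.26 (SE 0.25, adjusted p = 0.453 in edgeR), with a 95% interval from 0.555-fold to 1.26-fold. The log2 fold change depended on single sEVs libraries: it was -0.12 without replicate 1, -0.61 without replicate 2 and -0.15 without replicate 3 (in edgeR, adjusted p = 0.745, 0.125 and 0.701), and without lEVs replicates 1, 2 and 3 it was -0.28, -0.39 and -0.18.

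The remaining pair are too low for a firm comparison, although both passed the count filter. miR-181a-1-3p, the opposite arm of the chromosome 1 hairpin, was counted 9, 17 and 8 times in lEVs and 13, 21 and 20 times in sEVs, with a log2 fold change of 0.46 (SE 0.37, adjusted p = 0.371 in edgeR). Its levels of 222, 156 and 82.6 CPM in lEVs spanned those of 179, 222 and 179.6 CPM in sEVs, and its 95% interval ran from 0.760-fold to 2.47-fold. Its log2 fold change was 0.08 without lEVs replicate 3 (adjusted p = 0.897 in edgeR) and 0.30 without sEVs replicate 2, and without any other single library it was between 0.46 and 0.66. miR-155-5p, the miRNA of activated lymphocytes, was counted 4, 28 and 10 times in lEVs and 6, 11 and 13 times in sEVs, with a log2 fold change of -0.62 (SE 0.45, adjusted p = 0.341 in edgeR). Its CPM values were 98.8, 257 and 103 for lEVs and 82.8, 116 and 117 for sEVs. Here lEVs replicate 2 stood above the rest, and the other libraries overlapped. The 95% interval of miR-155-5p ran from 0.313-fold to 1.35-fold and thus held both a fall and a rise, and a fall below 0.313-fold or a rise above 1.35-fold lies outside it. Summed over 3 libraries, its 42 counts in lEVs carry an exact Poisson 95% interval of 30.3 to 56.8 and its 30 counts in sEVs of 20.2 to 42.8, which cover counting error only.

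**Figure D2:**
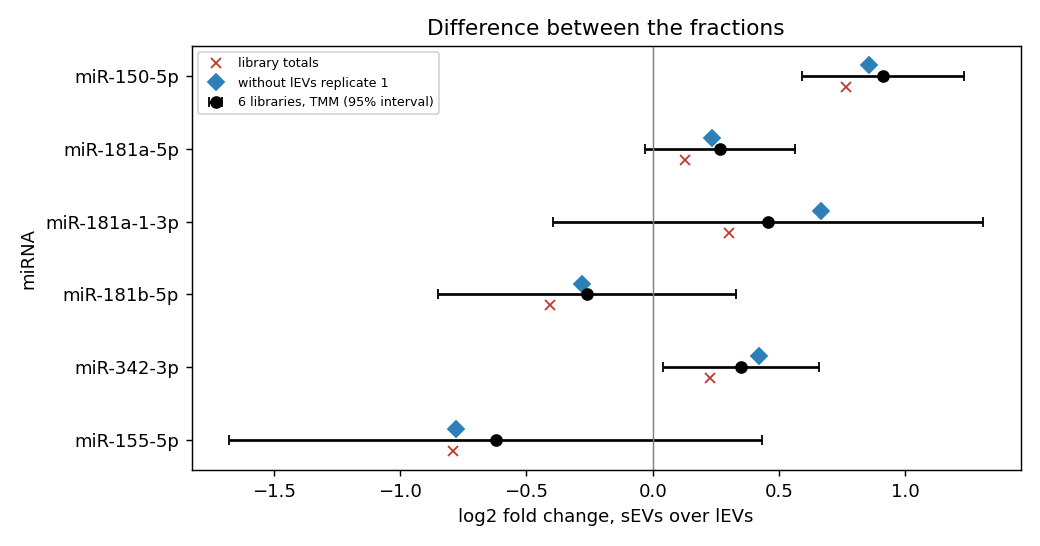
Log2 fold change of each lymphoid miRNA, sEVs over lEVs, with its 95% interval from edgeR (black), scaled by library totals (crosses), and without lEVs replicate 1 (diamonds). The intervals of miR-150-5p (0.59 to 1.23) and miR-342-3p (0.04 to 0.66) lie above 0, and those of miR-181a-1-3p and miR-155-5p are the widest.

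By mean level over 6 libraries, the order was miR-181a-5p (rank 42 of the 327 miRNAs above 0), miR-342-3p (45), miR-150-5p (52), miR-181b-5p (71), miR-181a-1-3p (118) and miR-155-5p (133). The ranges of miR-181a-5p and miR-342-3p overlapped in both fractions, so that pair cannot be ordered. miR-150-5p lay below both and above miR-181b-5p in every library of each fraction. miR-181a-1-3p and miR-155-5p overlapped in lEVs, and in sEVs all values of miR-181a-1-3p were higher. These are CPM levels of RNAs of like length, 22 to 24 bases in the members with a sequence, which leaves out miR-150-5p. Whether different sequences entered the libraries equally well was not tested, so the order is one of CPM only.

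**Figure D3:**
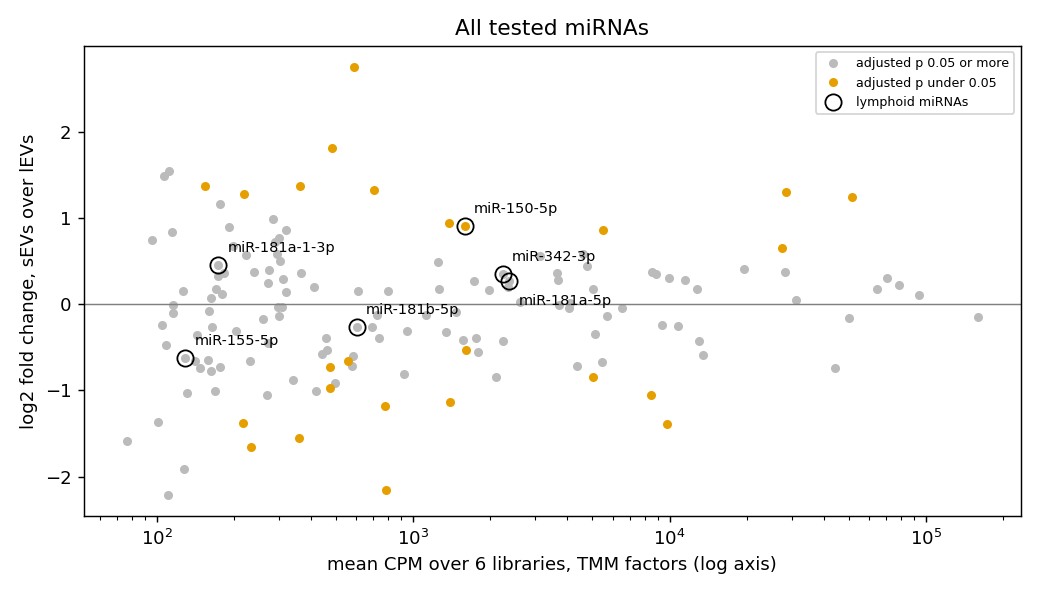
Log2 fold change, sEVs over lEVs, against mean CPM with TMM factors on a log axis for the 145 tested miRNAs, with the 6 lymphoid miRNAs circled. miR-150-5p lies among the called miRNAs at a log2 fold change of 0.91, and the other 5 lie among those with an adjusted p of 0.05 or more.

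Ratios between miRNAs within a library do not depend on how libraries are scaled, and show whether members changed unequally. In all, 33 ratios were tested, and with 3 against 3 libraries the exact two-sided permutation test cannot go below p = 0.1. The 14 ratios without overlap stood at that p, which adjustment over the 33 put at 0.236 in these data. Many of the ratios share a member, and how often ratios of other tested miRNAs lie apart was not computed. The count of 14 of 33 is therefore not read as a result about the members. miR-150-5p had 0.488, 0.5 and 0.542 counts for each count of miR-181a-5p in lEVs, and 0.9, 0.756 and 0.756 in sEVs. The fractions did not overlap, and the ratio was 1.57-fold higher in sEVs (exact permutation p = 0.1, adjusted p = 0.236). For each count of miR-342-3p, miR-150-5p reached 0.456, 0.62 and 0.604 counts in lEVs libraries and 0.835, 0.915 and 0.745 in sEVs libraries, which was 1.49-fold higher (exact permutation p = 0.1, adjusted p = 0.236). Its ratios to miR-181b-5p and miR-155-5p were 2.33-fold and 2.52-fold higher in sEVs, also without overlap (exact permutation p = 0.1, adjusted p = 0.236 for each). The ratio to miR-155-5p rests on that member's low counts. Its log2 difference was 1.33 with all libraries and 0.94 without lEVs replicate 2. The ratio of miR-150-5p to miR-181a-1-3p overlapped between the fractions (exact permutation p = 0.4). Every ratio of miR-150-5p, here and below, reuses the counts in which it passed, so none is separate support for its rise.

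The more abundant pair, miR-181a-5p and miR-342-3p, had a ratio near 1 in both fractions, with 0.933, 1.24 and 1.12 counts of miR-181a-5p for each count of miR-342-3p in lEVs and 0.928, 1.21 and 0.985 in sEVs (exact permutation p = 0.7). Within the miR-181 family, miR-181a-5p had 3.23, 3.88 and 2.82 counts for each count of miR-181b-5p in lEVs and 5.45, 3.76 and 5.65 in sEVs. sEVs replicate 2 lay among the lEVs values, so the fractions overlapped (1.49-fold higher in sEVs, exact permutation p = 0.2). The ratio of the arms, miR-181a-5p to miR-181a-1-3p, was 9.33, 14.6 and 25.4 in lEVs and 13.8, 12.9 and 13.55 in sEVs (exact permutation p = 0.7), and its numerator also counts the product of the chromosome 2 hairpin.

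**Figure D4:**
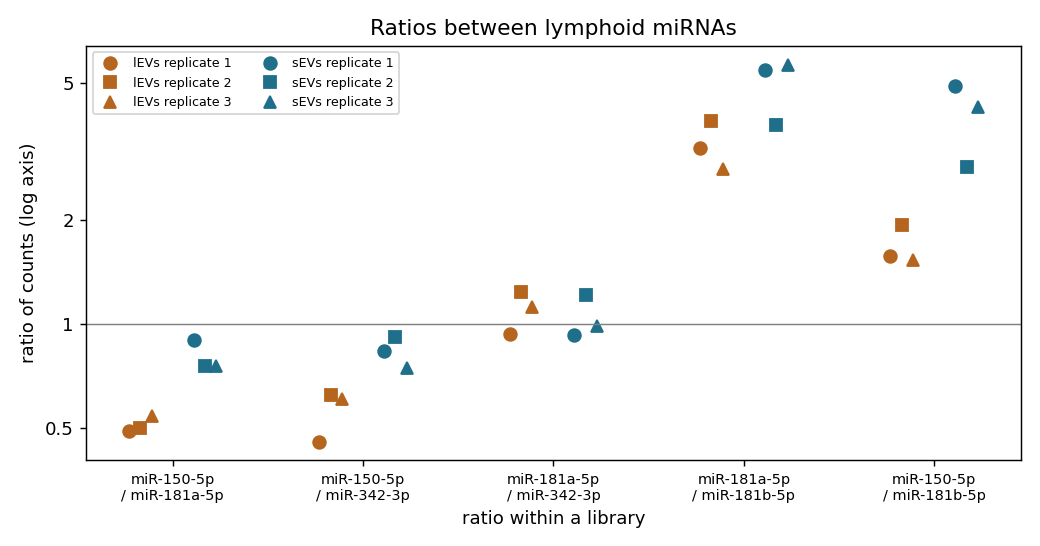
Ratio of counts between pairs of lymphoid miRNAs within each library, on a log axis. The 3 sEVs ratios of miR-150-5p to miR-181a-5p, from 0.756 to 0.9, lie above the 3 lEVs ratios, from 0.488 to 0.542, and those of miR-181a-5p to miR-342-3p overlap.

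The other members of the miR-181 family were rare. miR-181c-5p had 6 counts in lEVs replicate 3 and 10 and 7 counts in sEVs replicates 2 and 3, and was listed at 0 in the others. miR-181d-5p had 4 and 5 counts in lEVs replicates 1 and 3 and was listed at 0 in every sEVs library. Of the guide-strand counts of the family, miR-181a-5p took 84.5%, 76.8% and 83.1% in sEVs, against 73.7%, 79.5% and 71.0% in lEVs, where the ranges overlapped. The arm miR-181a-2-3p had 2 and 3 counts in lEVs replicates 2 and 3 and 3 counts in each of sEVs replicates 2 and 3. Of the other arms, miR-181b-1-3p had 5 counts in lEVs replicate 2, and miR-181c-3p had 8 counts in lEVs replicate 2 and 2 counts in sEVs replicate 1. None of these 10 relatives and opposite arms passed the count filter, and 4 of them (miR-150-3p, miR-155-3p, miR-181b-2-3p and miR-181d-3p) were listed at 0 throughout. A listed 0 may stand for 0 or 1 count, because the table held no value of 1.

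Levels were also set against markers of other blood and bone cells within each library. For every 100 counts of the myeloid miR-223-3p, miR-150-5p reached 3.36, 3.69 and 3.67 counts in lEVs libraries and 7.09, 7.09 and 5.61 in sEVs libraries. That ratio was 1.83-fold higher in sEVs without overlap (exact permutation p = 0.1, adjusted p = 0.236). The same ratio of miR-342-3p was 7.36, 5.95 and 6.07 in lEVs and 8.49, 7.75 and 7.53 in sEVs (1.23-fold higher, exact permutation p = 0.1). For miR-181a-5p it was 6.87, 7.38 and 6.77 in lEVs and 7.88, 9.37 and 7.42 in sEVs, where the nearest libraries almost touched (1.17-fold higher, exact permutation p = 0.1).

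The mesenchymal list, 8 rows led by miR-199a-3p/199b-3p and miR-125b-5p, took between 13.9% and 16.5% of lEVs counts and between 19.8% and 20.8% of sEVs counts. Of its 8 tested rows, 3 rose in sEVs and 5 did not pass, the 3 being miR-143-3p, miR-10b-5p and miR-125b-5p. The share higher in sEVs over all 145 miRNAs was 8.28%. The log2 fold change was above 0 for 5 of the 8, and below 0 for miR-145a-5p, miR-214-3p (-0.17) and miR-100-5p (-0.14). Without lEVs replicate 1, 5 rose and 1 fell, where 19.2% of all tested miRNAs were higher in sEVs and 15.2% in lEVs. The row that fell was miR-145a-5p (log2 fold change -1.098, adjusted p = 0.00448 in edgeR), so the rows of the list did not all move alike. For every 100 mesenchymal counts, miR-150-5p reached 0.621, 0.811 and 0.800 counts in lEVs libraries and 1.08, 1.01 and 0.862 in sEVs libraries. Its ratio to the list was 1.32-fold higher in sEVs (exact permutation p = 0.1), from the same miR-150-5p counts, so it is no separate support. miR-342-3p reached 1.36, 1.31 and 1.32 counts in lEVs libraries and 1.30, 1.10 and 1.16 in sEVs, the reverse order. That difference was 1.13-fold (exact permutation p = 0.1), and the nearest libraries almost touched. miR-181b-5p was also lower against the mesenchymal list in sEVs, at 0.221, 0.354 and 0.202 counts, against 0.394, 0.419 and 0.524 in lEVs (1.76-fold, exact permutation p = 0.1). The rare miR-155-5p was lower in sEVs at 0.0401, 0.0541 and 0.0547 counts, against 0.0606, 0.183 and 0.0728 in lEVs (1.91-fold, exact permutation p = 0.1). Each of these comparisons had an adjusted p of 0.236. The log2 difference of miR-155-5p against the list was -0.93 with all libraries and -0.48 without lEVs replicate 2. The erythroid list, which is nearly all miR-16-5p, a miRNA of many cells, took between 16.5% and 19.2% of lEVs counts and between 14.5% and 15.6% of sEVs counts. None of its 3 tested rows passed in edgeR (0 at an unadjusted p under 0.05, and 0 in DESeq2). The myeloid list took between 5.21% and 7.92% of lEVs counts and between 5.91% and 6.70% of sEVs counts, and 0 of its 7 tested miRNAs passed in edgeR (2 lower in sEVs at an unadjusted p under 0.05, 0 in DESeq2, and 2 lower without lEVs replicate 1). The endothelial list, the 2 arms of miR-126a, took between 6.52% and 7.80% of lEVs counts and between 8.24% and 8.60% of sEVs counts. In edgeR 0 of its 2 rows passed, though 2 were higher in sEVs at an unadjusted p under 0.05. Of the 2, 1 passed in DESeq2 and 1 in edgeR without lEVs replicate 1, both higher in sEVs. The part that shares of other cell types have in the levels of the lymphoid miRNAs was not tested.

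Of 20 other miRNAs with roles in lymphocytes, 14 were tested, of which 0 rose in sEVs, 1 fell and 13 did not pass in edgeR. DESeq2 gave 0 higher and 1 lower. Over all 145 miRNAs, 8.97% were higher in lEVs, so 1 of 14 is near the background and is not a result about the list. At an unadjusted p under 0.05 in edgeR, 0 were higher and 4 lower. Such p-values were common, as miR-342-3p (unadjusted p = 0.0312 in edgeR) ranked only 45 of the 145 by p. The median log2 fold change of the 14 was -0.44, against -0.04 over all tested miRNAs. Of the 14, 5 (both arms of miR-142a, miR-146a-5p, miR-146b-5p and miR-21a-5p) are also on the myeloid list. The one that fell was miR-29a-3p, which restrains interferon-gamma in T cells and collagen in mesenchymal cells, with a log2 fold change of -1.06 (SE 0.18, adjusted p = 0.00447 in edgeR). The most abundant, miR-148a-3p and miR-21a-5p, did not pass, at a log2 fold change of -0.59 for the former (SE 0.35) and 0.29 for the latter (SE 0.22, adjusted p = 0.231 and 0.367 in edgeR). Both values rested on lEVs replicate 1, without which they were -0.05 and 0.07 (adjusted p = 0.771 and 0.711 in edgeR). Without that library, in the fit where 15.2% of all tested miRNAs were higher in lEVs, 4 of the 14 fell, miR-29a-3p, miR-29b-3p, miR-19b-3p and miR-146b-5p (in edgeR, adjusted p = 1.42e-05, 0.0127, 0.00196 and 0.000566), the last 3 named after their values were seen.

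The miRNAs whose profile over the 6 libraries was most like each member were found by the root mean square difference of log2(CPM + 10), each centred on its own mean, which is a description. For miR-150-5p they were miR-23a-3p/23b-3p (0.07), miR-125b-5p (0.18) and miR-10b-5p (0.21), against a median of 0.59 over all tested miRNAs. All of these were themselves higher in sEVs, with log2 fold changes of 0.86, 1.24 and 0.94 (in edgeR, adjusted p = 0.00263, 0.000534 and 0.00367). Because a profile includes the difference between the fractions, that follows largely from how they were found and is no separate result. For miR-342-3p they were the endothelial miR-126a-3p (0.05), let-7a-5p (0.08) and miR-199a-5p (0.09), and for miR-181a-5p they were miR-199b-5p (0.04), miR-98-5p (0.10) and miR-152-3p (0.10), against medians of 0.46 and 0.45. The nearest to miR-181b-5p was miR-100-5p (0.15). The rare miR-181a-1-3p and miR-155-5p had more distant nearest profiles, miR-382-5p (0.19) and miR-133a-3p/133b-3p (0.32). Among the members themselves, miR-181a-5p and miR-342-3p were the nearest pair (0.17), and miR-150-5p and miR-155-5p the farthest (0.79).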

How the data were processed

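Per the labels' protocols, small RNA of 3 lEVs and 3 sEVs samples was made into libraries with a QIAseq miRNA kit, and single reads of 75 bases were taken on a MiSeq. The file deposited by the authors gives raw counts for each mature miRNA in each library, with no normalization. The submitters' processing notes name the build GRCm38 and the tools DESeq2 1.38.2 and R 4.2.2. For the aligner, strand and molecular identifiers nothing is given in the sources used here. Without strand, reads of Mir181a-2 and of Nr6a1, antisense to it, could be counted together. The same holds for Mir181b-2 with Nr6a1 and Gm44144, and for Mir181a-1 and Mir181b-1 with Gm26936.

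The fraction contrast was fitted by the quasi-likelihood method of edgeR 4.0.16 under R 4.3.3, with TMM scaling. Its filterByExpr defaults (10 counts, total of 15) kept all 6 members, and the Benjamini-Hochberg method was applied to the 145 tested miRNAs, with calls at 0.05. The test was checked on counts simulated from a pooled profile, in which no library stood apart as lEVs replicate 1 did here. Standard errors are the absolute log2 fold change over the square root of F, and 95% intervals use the test's degrees of freedom. Ratios had 0.5 counts added for the test and were compared by exact two-sided permutation. Alternatives used DESeq2 1.42.0, limma 3.58.1 voom, other scalings, filters and thinning, and left out each library. Members and lists were chosen with earlier results of these data known. Named miRNAs were the members, their relatives above 0, list members past the threshold, the 2 most abundant of each list, and the 3 most alike in profile.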

Additional observations from a re-analysis of the deposited data

How the results depend on the processing

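miR-150-5p passed in all 16 alternatives, with log2 fold changes from 0.76 to 0.99 and adjusted p from 0.000241 to 0.0322, the largest with library totals. miR-342-3p passed in 1 of its alternatives, without lEVs replicate 1 (log2 fold change 0.42, adjusted p = 0.0282), and its adjusted p over all ranged from 0.0282 to 0.329. The other 4 kept their direction and did not pass in any alternative run. After thinning to 47441 counts neither miR-181a-1-3p nor miR-155-5p passed the count filter, nor did miR-155-5p without lEVs replicate 2, so these gave no value. The number of members called was 1 to 2 with a library left out. Over all miRNAs, 25 passed, 53 without the filter on low counts and 16 to 52 with a library left out (16 without lEVs replicate 3, 52 without lEVs replicate 1). Library totals put the median log2 fold change of all tested miRNAs at -0.18 in place of -0.04, and gave 11 calls higher in sEVs and 24 in lEVs in place of 12 and 13. Relative to that median, miR-150-5p was 0.95 higher under both scalings. A change of scaling moves all miRNAs nearly alike, so this agreement follows from the method and is no separate check.

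Same-numbered libraries did not consistently deviate together (correlations of -0.07, 0.07 and 0.37 for replicates 1, 2 and 3). The value for replicate 3 was the highest of all pairs across the fractions, but not every library correlated best with its own number. Whether a number marks a shared preparation is thus not settled. With the replicate number as a block, 26 miRNAs passed, and miR-150-5p had an adjusted p of 0.00737 and no other member passed. Leaving out a library turned the sign of 7 of the 33 log2 ratios, none with groups apart. Their ranges were -0.50 to 0.22 for miR-181a-5p to miR-181a-1-3p, -0.19 to 0.0194 for miR-181a-5p to miR-342-3p, -0.28 to 0.31 for miR-181a-1-3p to miR-342-3p, -0.38 to 0.42 for miR-181b-5p to miR-155-5p, -0.0210 to 0.71 for miR-181a-1-3p to miR-223-3p, -0.46 to 0.15 for miR-181a-1-3p to the mesenchymal list, and -0.70 to 0.26 for miR-155-5p to the erythroid list. Depth limits miR-181a-1-3p and miR-155-5p, which had under 10 counts in 2 libraries each.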
